A study of Mus musculus with 13 samples.

Results

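The 33 genes described here encode the enzymes and transporters that take up glucose and turn it into lactate, the oxygen-sensing factor Hif1a with 2 of its hydroxylases, and a set of genes that this factor is known to induce. They were chosen by name, as 33 of the 55353 gene symbols in the count tables. Their raw unique molecular identifier (UMI) counts were summed per library over 7 marker-defined cell types of the mouse liver: biliary epithelial cells (BECs), liver sinusoidal endothelial cells (LSECs), macrophages, neutrophils, both kinds of conventional dendritic cell (cDC1 and cDC2) and T cells. By role the genes comprised 1 glucose transporter, 11 genes of upper glycolysis, 5 of lower glycolysis, 4 that handle pyruvate and lactate, 3 for Hif1a and its hydroxylases, and 9 other hypoxia targets.

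Glycolysis splits glucose into pyruvate, and cells that run it faster than their mitochondria burn pyruvate reduce the surplus to lactate and export it. Several steps have alternative isozymes that different cell types use. When oxygen is plentiful, the Egln hydroxylases mark Hif1a protein for degradation. When oxygen is short the protein escapes, binds DNA and induces most glycolytic enzymes along with genes such as Vegfa, Bnip3 and Egln3. Hif1a is thus regulated mainly as a protein, and the level of its RNA says little about its activity.

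The libraries came from livers of male C57BL/6J mice, aged 6 to 12 weeks by the study's methods. The mice ate chow containing DDC (3,5-diethoxycarbonyl-1,4-dihydrocollidine) at 0.1%, a porphyrinogenic agent that injures bile ducts and causes cholestasis, or were controls at day 0 (D0). Each of D0, D3, D5, D9, D19 and D25 gave 1 library per isolation protocol, named A or B. Protocol A sorted a broad mixture of immune, endothelial, ductal and retinoid-storing cells, and protocol B a stellate cell preparation with Cd11c+ Cd64- cells, Epcam+ cells and T cells, so the sorts set how many cells of a type a library held. A thirteenth library, STOP, held protocol B cells after DDC to day 18 or 19 and 7 days back on normal chow. One label of D19 B gives day 18. No source used here ties libraries to single mice, so that p-values measure the spread between libraries. D0 had 2 libraries, and diet days were grouped as early (D3 and D5, 4 libraries) and late (D9, D19 and D25, 6 libraries).

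Of 95563 cell barcodes with at least 1500 UMIs, 59578 passed the marker gate: 29013 LSECs, 10575 T cells, 6717 macrophages, 3652 neutrophils, 3589 BECs, 3423 cDC1 and 2609 cDC2. Library totals were 29307190 to 108602421 UMIs, and the summed UMIs behind a value ran from 102028 in a neutrophil library to 42222510 in an LSEC library. Libraries with under 20 cells of a type were left out for it. Every marker of a type's own list was found in D0 and in STOP, and at most 1 was at 0 in any diet library. BECs reached 20 cells at D0 only in D0 A, and cDC2 only in D0 B. No pair of libraries shared more than 0.519% of its cell barcodes.

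Values below are CPM, the UMIs of a gene scaled to 1000000 UMIs of that cell type in that library, and a gene was called where the adjusted p of edgeR's quasi-likelihood test was under 0.05. The kit reads the 3' ends of transcripts, so levels are compared between cell types and libraries and not between genes. Gapdh and Eno1 are uncertain throughout, because 94.9% and 84.3% of the 31-base words in the last 500 bases of their transcripts also occur in transcripts of other genes. The same share was 23.2% for Aldoa, 16.2% for Gpi1 and 11.1% for Pgk1, and at most 2.81% for any other member.

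A pair of libraries stood apart in Eno1, the enolase of most tissues. In BECs Eno1 was at 46.5 CPM in D19 B and 49.8 CPM in D25 B, and between 143 and 210 CPM in the other 7 libraries. The same pair lay below all other libraries in macrophages, neutrophils, cDC1, cDC2 and T cells. In LSECs D19 B was also the lowest, at 16.0 CPM, while D25 B at 19.3 CPM fell inside the range of the other libraries, which began at 16.7 CPM. Pgam1 showed the same order in BECs, neutrophils, cDC1 and cDC2. Between 0.913% and 2.38% of genes with a mean of at least 10 CPM were lowest in this pair, depending on the cell type. Results are therefore also given without D19 B and D25 B.

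The 4 promoters printed here belong to the genes on which the results turn: Slc16a3, Hk3 and Hk2, which differed between cell types, and P4ha1, which was called in macrophages under the diet. Each is the 300 bases from 250 before to 50 after a RefSeq transcription start on GRCm38.p6, with the letters ACGTG or GCGTG, the core of the site that Hif1a recognizes, in capitals wherever they occur on either strand (read as CACGT or CACGC on the other strand). Slc16a3 lies at chr11:120948817-120949116 on the plus strand, Hk3 at chr13:55021336-55021635 on the minus strand, Hk2 at chr6:82774405-82774704 on the minus strand and P4ha1 at chr10:59323046-59323345 on the plus strand.
Slc16a3: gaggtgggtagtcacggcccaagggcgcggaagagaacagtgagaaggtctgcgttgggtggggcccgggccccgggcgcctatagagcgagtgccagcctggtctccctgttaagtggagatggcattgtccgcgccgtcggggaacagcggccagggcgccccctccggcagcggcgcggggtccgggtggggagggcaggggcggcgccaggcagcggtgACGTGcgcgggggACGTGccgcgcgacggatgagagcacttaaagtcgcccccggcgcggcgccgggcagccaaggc
Hk3: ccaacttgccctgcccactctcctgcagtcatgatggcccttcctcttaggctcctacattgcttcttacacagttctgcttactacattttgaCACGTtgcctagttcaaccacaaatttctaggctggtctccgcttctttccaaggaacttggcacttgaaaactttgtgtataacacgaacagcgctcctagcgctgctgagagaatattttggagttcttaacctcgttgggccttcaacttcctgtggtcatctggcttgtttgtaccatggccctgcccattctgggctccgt
Hk2: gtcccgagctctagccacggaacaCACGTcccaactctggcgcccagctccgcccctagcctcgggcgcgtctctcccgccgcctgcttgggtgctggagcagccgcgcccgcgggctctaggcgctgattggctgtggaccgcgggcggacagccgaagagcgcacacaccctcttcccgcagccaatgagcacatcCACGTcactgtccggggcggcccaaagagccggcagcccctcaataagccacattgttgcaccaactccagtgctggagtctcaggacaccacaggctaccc
P4ha1: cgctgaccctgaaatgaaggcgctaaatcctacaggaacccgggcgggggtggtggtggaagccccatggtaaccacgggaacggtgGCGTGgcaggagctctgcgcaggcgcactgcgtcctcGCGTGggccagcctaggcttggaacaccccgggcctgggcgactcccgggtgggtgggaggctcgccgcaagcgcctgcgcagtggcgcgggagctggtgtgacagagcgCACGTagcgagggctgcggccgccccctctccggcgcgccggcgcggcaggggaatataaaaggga
Slc16a3 held 2 cores on its own strand, at 27 and 14 bases before the start. P4ha1 held 2 on its own strand and 1 on the other, while Hk2 held 2 and Hk3 held 1, all on the other strand. The CACGTG box bound by other factors contains the same letters. Among RefSeq promoters, 38 of 46 windows of the 32 members found there had at least 1 core, against 43.8% of all 32851 windows, and a match is not evidence that the factor binds.

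The cell types were set against each other first, in 1 edgeR fit over the 12 D0 and diet libraries with the library as a block. Each type was compared with the mean of the other 6. Between 17 and 29 of 32 members were called per cell type, where the background of all 12610 genes tested was 77.3% in BECs, 78.5% in LSECs, 60.4% in macrophages, 65.9% in neutrophils, 69.2% in cDC1, 56.6% in cDC2 and 69.5% in T cells, so that being called was not particular to these genes. The sizes and the order of the differences are what follows.

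Glucose transporters differed between cell types. Slc2a1, the widespread glucose transporter Glut1, was scarce everywhere, with a median of 0.138 CPM in LSECs, 3.18 CPM in neutrophils and between 0.33 and 2.30 CPM in the other types. It was lower in LSECs (log2 fold change -3.02, SE 0.33, adjusted p = 3.8e-13 by edgeR) and higher in neutrophils (2.41). Among the other glucose and glycolysis genes, Slc2a3, the high-affinity transporter Glut3, was higher in neutrophils (5.83, SE 0.22, adjusted p = 3.9e-35), with a median of 198 CPM, and in T cells (1.95, adjusted p = 9.2e-10). Slc2a6 was higher in neutrophils as well (4.73).

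The hexokinases, which trap glucose in the cell, differed between cell types by isozyme. Hk3 lay between 29.7 and 84.2 CPM in the 12 macrophage libraries (median 56.6) and between 17.4 and 93.0 CPM in the 11 neutrophil libraries (median 35.7). It was at or below 0.576 CPM in BECs, 2.53 CPM in LSECs and 1.15 CPM in T cells. Macrophages and neutrophils thus did not overlap with these 3 types, nor with cDC2 (0 to 4.04 CPM). cDC1, at 0 to 36.8 CPM (median 7.47), overlapped with all types. Free RNA of the D0 and diet libraries held Hk3 at 6.57 to 35.3 CPM. The log2 fold changes were 4.64 (SE 0.15, adjusted p = 7e-40) in macrophages, 4.25 in neutrophils, 1.63 in cDC1, -1.30 in cDC2, -2.27 in LSECs, -2.39 in T cells, where 6 of 11 libraries were at 0, and -4.55 in BECs.

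Hk2, the inducible isozyme, followed another order. Its median was 172 CPM in cDC2, 134 CPM in macrophages, 109 CPM in cDC1 and 101 CPM in neutrophils, then 29.1 CPM in T cells, 21.8 CPM in LSECs and 10.8 CPM in BECs. Ranges of the upper 4 types overlapped, from 100 to 260 CPM in cDC2 and from 78.1 to 305 CPM in macrophages, whereas no BEC library exceeded 24.5 CPM. T cells, at 5.19 to 128 CPM, overlapped with every other type, and neutrophils (25.0 to 178 CPM) with LSECs (11 to 36.2 CPM). The protocol A libraries used here held only 22 to 53 T cells, so that single T cell values can rest on few UMIs. Against the other types Hk2 was higher in cDC2 (1.96, SE 0.14, adjusted p = 2.8e-19) and macrophages (1.73, SE 0.13) and lower in BECs (-3.03, SE 0.22). Hk1, the housekeeping isozyme, moved within a narrower range, from a median of 13.8 CPM in cDC1 to 48.7 CPM in LSECs. BECs held a further hexokinase from the fixed lists, Hkdc1, at a median of 33.7 CPM and 6.79 log2 units above the mean of the other types (SE 0.20, adjusted p = 9.6e-40).

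**Figure D1:**
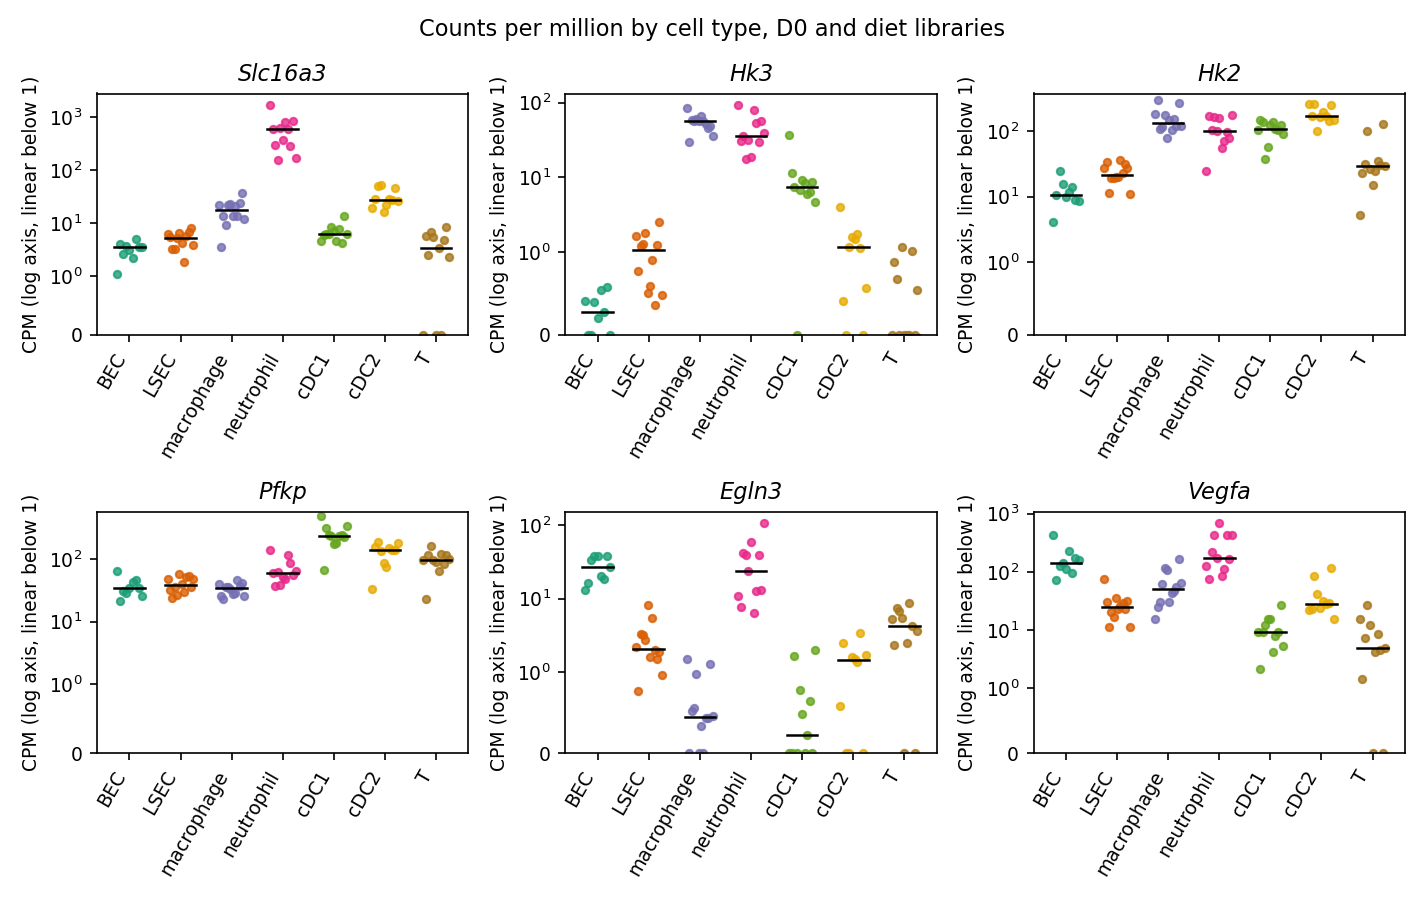
CPM on a log axis that is linear below 1, for Slc16a3, Hk3, Hk2, Pfkp, Egln3 and Vegfa, in each D0 and diet library with at least 20 cells of the type (points) with the median (bar). Slc16a3 in neutrophils (154 to 1720 CPM) does not overlap with any other type, and Hk3 is high in macrophages and neutrophils.

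Phosphofructokinase, which commits sugar to glycolysis, also differed by isozyme. Pfkp, the platelet form, had a median of 241 CPM in cDC1 (range 67.4 to 492), 139 CPM in cDC2 and 99.5 CPM in T cells, and 34.7 to 60.4 CPM in the other 4 types. It stood 2.21 log2 units above the other types in cDC1 (SE 0.10, adjusted p = 1.5e-29) and 1.53 below in BECs. Pfkm, the muscle form, was higher in LSECs (1.33) and BECs, at medians of 5.36 and 6.27 CPM, and lower in neutrophils (-1.95, with 8 of 11 libraries at 0), and Pfkl, the liver form, was at 12.0 to 47.2 CPM with its highest median in BECs. Pfkfb3, which makes the fructose bisphosphate that activates phosphofructokinase, had medians from 13.5 CPM in T cells to 36.5 CPM in macrophages. T cells, at 0 to 20.9 CPM, did not overlap with macrophages (25.2 to 65.6 CPM) or LSECs (27.4 to 44.2 CPM), and the ranges of the other 6 types overlapped.

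Aldoc, the brain-type aldolase, was higher in BECs and dendritic cells. It lay between 24.9 and 73.3 CPM in BECs (2.95, SE 0.16, adjusted p = 3e-26), at a median of 15.5 CPM in cDC1 (range 0 to 36.8) and 13.8 CPM in cDC2 (range 4.81 to 32.5), 2.04 and 2.02 above the other types, and at a median of 0.645 CPM in LSECs (-3.43, SE 0.27). Both dendritic types overlapped with macrophages (1.02 to 9.27 CPM) and neutrophils (0 to 9.80 CPM, -1.85), and free RNA of the D0 and diet libraries held 2.47 to 16.8 CPM. Aldoa, the main aldolase outside the liver parenchyma, was at 490 CPM in BECs, 418 CPM in macrophages and 152 CPM in LSECs. Tpi1, which interconverts the triose phosphates, had its highest median in BECs (221 CPM, 1.13 above the other types), and Gpi1 in cDC1 (288 CPM).

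Lower glycolysis, from triose phosphate to pyruvate, was lowest in LSECs for Pgam1 (-1.39) and Eno1 (-2.07). Pkm, the pyruvate kinase of most tissues, was instead lowest in BECs, at 77.4 CPM (range 56.7 to 107), and was at 431 CPM in neutrophils and 390 CPM in macrophages. The BEC libraries did not overlap with any other type for Pkm (-2.22). Pgk1 had its highest median in cDC1 (199 CPM, 1.14 above the other types), as did Pgam1 (148 CPM).

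Export of lactate gave the largest difference of any member. Slc16a3, the lactate exporter Mct4, was at 1720 CPM in D0 A and 597 CPM in D0 B neutrophils, and between 154 and 843 CPM in the 9 diet libraries with neutrophils. The highest value in any library of another type was 52.3 CPM, in cDC2. Neutrophils stood 6.26 log2 units above the mean of the other types (SE 0.16, adjusted p = 1.1e-44), and BECs 3.10 below it. Free RNA, read from barcodes with at most 100 UMIs, held Slc16a3 at 8.01 to 60.7 CPM, so the medians of 3.35 to 17.6 CPM in T cells, BECs, LSECs, cDC1 and macrophages lay within or under that range, and the 16.0 to 52.3 CPM of the cDC2 libraries lay within it.

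Slc16a1 (Mct1), which also moves lactate, was ordered the other way, with medians of 26.6 CPM in T cells (1.82), 25.7 CPM in BECs and 0.722 CPM in neutrophils (-2.37, SE 0.42, adjusted p = 1.2e-06), and was lower in cDC2 (-1.56). Ldha, which makes lactate from pyruvate, was between 461 and 889 CPM in cDC1 (median 546, 1.34 above the other types) and at medians of 363 CPM in cDC2, 341 CPM in macrophages, 313 CPM in T cells, 217 CPM in BECs, 193 CPM in LSECs and 189 CPM in neutrophils. The last 3 overlapped with each other. Pdk1, a kinase that inhibits pyruvate dehydrogenase, was highest in T cells (61.9 CPM, 1.92, SE 0.12, adjusted p = 1.2e-22 by edgeR) and next in LSECs (42.4 CPM, 1.27). Of 12 genes of mitochondrial pyruvate use and the TCA cycle, 7 were higher and 0 lower in BECs (all genes 43.4% and 33.9%), and 1 was higher and 9 lower in LSECs (43.0% and 35.5%). In cDC2 6 were higher and 1 lower (26.8% and 29.7%), with Fh1 2.24 higher, and in cDC1 5 and 2 (32.6% and 36.5%). Neutrophils had 2 higher and 8 lower (27.9% and 38.1%), with Idh3a (-2.48) and Fh1 (-1.99) lowest, while macrophages had 3 (32.6% and 27.8%) and T cells 4 (33.3% and 36.2%) in each direction.

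**Figure D2:**
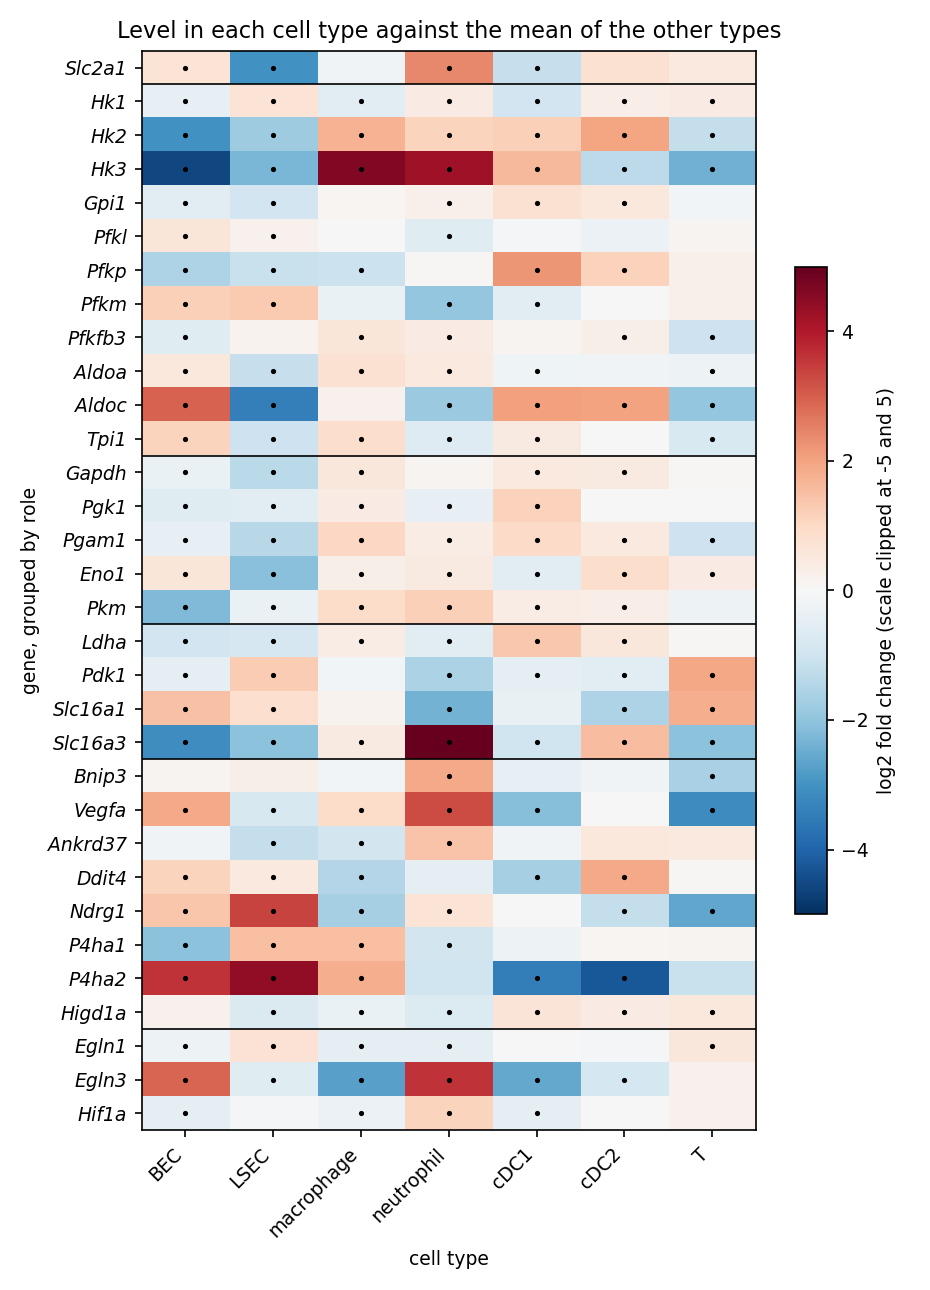
Log2 fold change of 32 members (rows, grouped by role) in each cell type (columns) against the mean of the other types, from 1 edgeR fit; dots mark called pairs. Among the highest values are Slc16a3 in neutrophils (6.26), Hk3 in macrophages (4.64) and P4ha2 in LSECs (4.44).

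Hif1a RNA itself varied little. Its median was 9.96 CPM in cDC1, 11.4 CPM in macrophages, 13.2 CPM in cDC2, 14.4 CPM in BECs, 17.2 CPM in LSECs, 19.2 CPM in T cells and 19.8 CPM in neutrophils. All ranges overlapped, and the neutrophils (12.9 to 62.1 CPM) stood 1.11 above the mean of the others. Epas1, which encodes the related factor Hif2a, was far more uneven, at a median of 514 CPM in LSECs and 5.38 log2 units above the other types (SE 0.14, adjusted p = 5.1e-45).

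Egln1, the hydroxylase that sets the basal level of Hif1a, ranged from a median of 26.3 CPM in neutrophils to 70.3 CPM in LSECs, and was 0.56 higher in T cells. Egln3, which Hif1a induces, was far more restricted. It was between 13.2 and 38.4 CPM in BECs (2.92, SE 0.18, adjusted p = 1.4e-23 by edgeR) and between 6.43 and 106 CPM in neutrophils (3.63, SE 0.23), and at medians of 0.224 CPM in cDC1 (-2.55) and 0.444 CPM in macrophages (-2.71). LSECs, at up to 8.13 CPM, and T cells, at up to 8.72 CPM, overlapped with the low end of the neutrophils.

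Vegfa, the endothelial growth factor, also had its highest medians in BECs and neutrophils. It ranged from 72.9 to 425 CPM in BECs (median 140, log2 difference 1.91) and from 75.5 to 676 CPM in neutrophils (median 172, log2 difference 3.25, SE 0.21). Medians were 51.3 CPM in macrophages, 28.6 CPM in cDC2, 24.7 CPM in LSECs, 9.20 CPM in cDC1 (-2.15) and 4.96 CPM in T cells (-3.13). Macrophages (15.5 to 165.4 CPM) and cDC2 (15.6 to 118.5 CPM) overlapped with both BECs and neutrophils, as did the highest LSEC library at 75.87 CPM. Within neutrophils the diet libraries split by protocol, with 85.8 to 217 CPM in the 5 of protocol A and 422 to 676 CPM in the 4 of protocol B. D0 A at 125 CPM and D0 B at 75.5 CPM did not share this order, and the part of the protocol in it was not tested.

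The collagen prolyl hydroxylases and Ndrg1 had their highest medians in LSECs, and each overlapped with another type. P4ha2 was between 6.09 and 37.7 CPM in LSECs (4.44, SE 0.20) and between 6.75 and 17.9 CPM in BECs (3.59, SE 0.24), so that BECs lay inside the LSEC range, and was called higher in macrophages as well (0.903 to 9.52 CPM, 1.82). It had a median of 0 in neutrophils, cDC1, cDC2 and T cells, and its fitted values of -3.47 in cDC1 and -4.25 in cDC2 rest on 8 of 11 and 9 of 10 libraries at 0. P4ha1, the catalytic subunit of a separate isoenzyme, had medians of 69.8 CPM in LSECs and 62.5 CPM in macrophages against 7.12 CPM in BECs, and its ranges in LSECs (51.2 to 180 CPM, 1.49) and macrophages (36.1 to 180 CPM) overlapped. Ndrg1, a gene of stress and hypoxia, was between 128 and 235 CPM in LSECs, without overlap with macrophages, neutrophils, dendritic cells or T cells (3.37, SE 0.13, adjusted p = 6e-35). In BECs it ranged from 34.1 to 187 CPM, with the highest value in D9 A, inside the LSEC range. Ndrg1 was lower in macrophages (-1.66) and T cells (-2.59).

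Ddit4, an inhibitor of mTOR signalling, was highest in BECs and cDC2 (medians 97.5 and 97.3 CPM, 1.90 in cDC2), and lower in cDC1 (-1.65) and macrophages (-1.48). Bnip3, a mitophagy receptor, had medians of 10.7 CPM in neutrophils (range 7.55 to 25.2), 6.08 CPM in LSECs, 5.40 CPM in BECs, 3.77 CPM in macrophages, 3.74 CPM in cDC1, 3.56 CPM in cDC2 and 0.766 CPM in T cells. It was higher in neutrophils (1.89) and lower in T cells (-1.62). Ankrd37 ranged from a median of 2.40 CPM to 9.53 CPM, and Higd1a from 42.9 CPM in neutrophils to 115 CPM in T cells. Adm, the vasodilator adrenomedullin, reached at most 2.56 CPM, in LSECs. Of 10 other hypoxia targets tested, Car9 led in BECs (4.13, SE 0.20) and Loxl2 in LSECs (5.88, SE 0.18).

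The diet was then compared with D0 within each cell type. A pair below is 1 member in 1 cell type. Of the 199 pairs tested 5 were called, 1 in macrophages and 4 in cDC2, and 0 in BECs, LSECs, neutrophils, cDC1 and T cells by edgeR. Over the 7 types 2.17% of all genes were called, so that the count of members was near the background. Leaving out 1 library gave from 1 to 20 calls. Without D0 A there were 20 of 170 pairs over the 6 types other than BECs (6.81% of all genes), and without D0 B 1 of 176 over the 6 types other than cDC2 (1.14%), since cDC2 then had no D0 library. Without D19 B and D25 B the only calls were in cDC2, where D0 is 1 library and where all genes gained calls too. In macrophages 0 of 28 members and 270 of 9930 genes were then called. By type the background was 4.13% in macrophages, 8.89% in cDC2, 0.97% in BECs, 0.257% in LSECs, 0.101% in neutrophils, 0.508% in cDC1 and 0.822% in T cells. At an unadjusted p under 0.05 there were 9 of 31 members in BECs, 5 of 32 in LSECs, 6 of 24 in neutrophils, 6 of 28 in cDC1 and 9 of 28 in T cells, where all genes gave 20%, 11.3%, 14.6%, 15% and 16.8%. DESeq2 called 1 member in each of these 5 types, and 3.99%, 1.85%, 2.45%, 1.54% and 2.02% of all genes in the same order. All 33 members were counted, but 11 passed the filter on low counts in only some of the cell types.

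P4ha1, which hydroxylates prolines of collagen chains so that they can fold, fell in macrophages. It was at 180 CPM in D0 A and 78.4 CPM in D0 B, at 85.8, 95.1, 74.2 and 51.4 CPM in D3 A, D3 B, D5 A and D5 B, and at 73.2, 36.1, 49.8, 41.9, 51.8 and 43.2 CPM in D9, D19 and D25, A before B. D0 A was high, and D0 B lay among the early diet libraries. The log2 fold change was -0.91 (SE 0.23, adjusted p = 0.0394 by edgeR), with -1.01 within protocol A and -0.75 within protocol B, and the call was lost without D0 A or D0 B (adjusted p = 0.22 and 0.0608), without D5 A, D5 B, D9 B, D19 A, D19 B or D25 A (0.0502 to 0.071), and without D19 B and D25 B together (0.069).

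LSECs gave the same direction with a clearer separation. P4ha1 was at 180 CPM in D0 A and 135 CPM in D0 B. On the diet it was at 99.7, 104, 76.9 and 61.5 CPM in D3 A, D3 B, D5 A and D5 B, and at 72.9, 52.1, 51.2, 66.7, 52.7 and 66.5 CPM in the late libraries. All 10 diet libraries lay below both D0 libraries, and all 6 late libraries lay below both D3 libraries. The log2 fold change was -1.01 but the adjusted p was 0.0672, so it was not called.

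BECs had a single D0 library, at 41.8 CPM. The 8 diet libraries held 17.9 CPM in D3 B, 8.67 CPM in D5 B and 4.05 to 10.1 CPM later, all below it (-1.63, adjusted p = 0.106), and without D3 B it was called (-1.85, adjusted p = 0.044). Values of P4ha1 in the other 4 types did not separate in this way, with 22.5 CPM at D0 B and 20.8 to 41.8 CPM on the diet in cDC2. The fitted change of P4ha1, which allows for protocol and scaling, was nonetheless negative in all 7 types, cDC2 included. It was called only in macrophages. Free RNA moved too, at 98.6 and 31.9 CPM in D0 A and D0 B and 8.35 to 74.3 CPM in the diet libraries. LSECs exceeded the free RNA of their own library in all 12 libraries and macrophages likewise, while BECs were below it in 8 of their 9 libraries, D0 A included. The part of free RNA in these values was not tested.

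**Figure D3:**
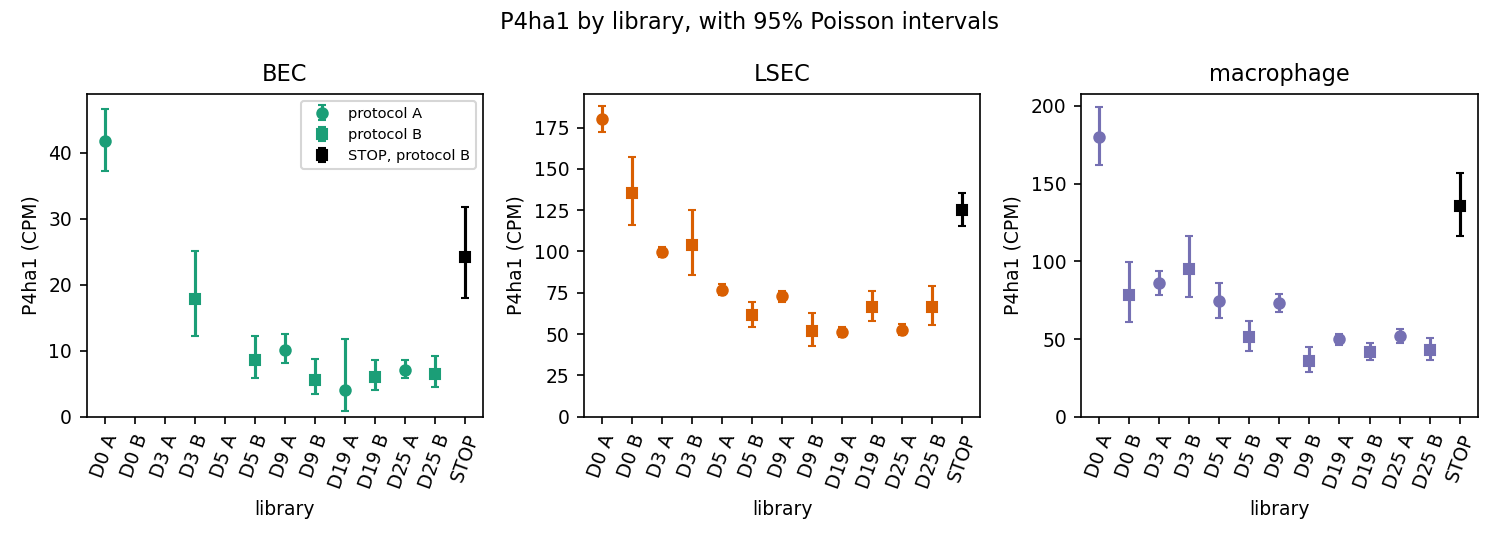
P4ha1 in CPM by library in BECs, LSECs and macrophages, with 95% Poisson intervals that cover counting error only; circles are protocol A, squares protocol B and the black square STOP. D0 A is highest in each panel, at 41.8, 180 and 180 CPM, and STOP at 24.1, 125 and 135 CPM lies above D19 B.

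In macrophages the stress genes fell alongside P4ha1. Of the 9 genes of dissociation and stress 6 were called lower and 0 higher, with Hspa1b (-3.37) and Hspa1a (-2.94), inducible heat shock proteins, changing most. Their summed level was 12640 to 15850 CPM at D0 and 4755 to 7020 CPM on the diet, and in LSECs it was 11500 to 21130 CPM at D0 and 4715 to 12330 CPM on the diet. In BECs it was 26410 CPM at D0 and 9931 to 17660 CPM on the diet. Of other cell types, the 8 hepatocyte markers summed to 422 to 1466 CPM in D0 macrophages and 559 to 1097 CPM in diet macrophages, all 8 found at each stage, and the 5 monocyte markers to 91.2 to 320 CPM and 131 to 497 CPM. The part of stress genes and of other cells in the P4ha1 result was not tested. In the other HIF pathway genes Cited2, a HIF target that competes with HIF for its coactivator, fell in macrophages (-1.18) and was at -2.01 in BECs (SE 0.33, adjusted p = 0.029), where D0 is 1 library and the spread came from the diet libraries. In cDC2, where D0 is also 1 library, the gene called among the other HIF pathway genes rose. The median log2 fold change of these genes was -0.25 in macrophages, -0.21 in BECs and -0.11 in T cells. In LSECs and cDC1 this median was 0.15, in cDC2 0.39 and in neutrophils 0.42. Ldhb, the lactate dehydrogenase subunit that favours pyruvate, rose in macrophages (2.50, SE 0.52, adjusted p = 0.0177 by edgeR) and fell in T cells (-1.71). It also rose from early to late diet in macrophages (1.60, SE 0.31, adjusted p = 0.0381).

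cDC2 were the type with most calls, 4 of 27 members against 8.89% of all genes, and rested on 1 D0 library. The spread behind these tests came from the diet libraries, and D0 B was assumed to vary like them, so that a difference of that library and a change with diet cannot be told apart. The cDC2 of D0 B had a median of 5252 UMIs per cell, against 6867.5 to 14979 in the diet libraries. Their median share of mitochondrial UMIs was 0.54%, against 1.53% to 3.90%. Pfkp rose, from 33.5 CPM in D0 B to 86.5, 75.1, 155 and 139 CPM in the early and 136 to 190 CPM in the 5 late libraries. All 9 diet libraries were higher, at 1.66 (SE 0.39, adjusted p = 0.0164). Aldoa fell from 450 CPM to between 189 and 299 CPM (-1.29, SE 0.27, adjusted p = 0.0092), again without overlap.

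Hk2 was at 258 CPM in D0 B and between 100 and 260 CPM on the diet, and Gapdh was at 34.1 CPM in D0 B and between 11.8 and 46.4 CPM on the diet. D25 A exceeded D0 B for both genes while the other diet libraries lay below it, and the fitted changes were -1.11 (adjusted p = 0.0348) for Hk2 and -1.44 (adjusted p = 0.0281) for the uncertain Gapdh. The call of Hk2 was lost without D9 B (adjusted p = 0.067) and without D19 B and D25 B together (0.0535), and that of Gapdh without D5 B (0.053). The cell cycle genes Cdk1 (-2.89), Top2a (-2.53) and Birc5 fell in cDC2 as well, 3 of 6, with a summed level of 413 CPM at D0 and 108 to 365 CPM on the diet. The 5 monocyte markers summed to 233 CPM in cDC2 at D0, with 3 of them at 0, and to 309 to 724 CPM on the diet, with up to 4 at 0. Of the 9 genes of dissociation and stress 1 was called lower and 0 higher in cDC2, and they summed to 8804 CPM at D0 and 4781 to 9588 CPM on the diet. The 5 markers of the cDC2 gate itself summed to 3023 CPM at D0, 1716 to 2735 CPM early and 2414 to 2604 CPM late. Over all libraries the gate kept 2609 cells and left out 2500 others that met its marker minimum. Mgl2 is among its markers, and the study reported most cDC2 from D9 on as negative for it. The changes are thus those of the gated cells and not of all cDC2. Free RNA held Aldoa at 509 CPM in D0 B, above the cDC2 there, and at 241 to 400 CPM in the diet libraries with cDC2. For Gapdh it held 41.2 CPM in D0 B, also above the cDC2, and 11.9 to 35.6 CPM on the diet. For Pfkp it held 53.2 and 29.6 to 75.6 CPM, and for Hk2 73.1 and 26.0 to 90.5 CPM. The part of free RNA, cycling, monocytes, stress genes, UMIs per cell, mitochondrial share and the make-up of the cDC2 in the glycolytic genes was not tested.

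Among the other types the smallest adjusted p belonged to Pfkp in T cells (1.26, adjusted p = 0.0752), Hk3 in cDC1 (-1.40, adjusted p = 0.124) and Slc16a3 in neutrophils (-1.47, adjusted p = 0.126). Pfkp in T cells was at 23.1 CPM in D0 B and 98.7 CPM in D0 A, where 53 T cells gave 19 UMIs, and at 64.4 to 162 CPM on the diet. It was called without D0 A (1.72, adjusted p = 0.0027) and was at 0.48 without D0 B (adjusted p = 0.743). Hk3 in cDC1 was at 36.8 and 11.6 CPM in D0 A and D0 B and at 0 to 9.17 CPM in the 9 diet libraries, without overlap. In D0 A that value rests on 8 UMIs. Free RNA held Hk3 at 16.6 and 12.5 CPM in D0 A and D0 B and at 6.57 to 22.95 CPM in the diet libraries with cDC1, and its part was not tested. Of the genes set to be described whatever their change, Hif1a had log2 fold changes from -0.95 in cDC2 to 0.52 in BECs, Pfkfb3 from -0.44 to 0.41, Ldha from -0.23 in neutrophils to 1.11 in BECs and Vegfa from -1.33 in BECs to 1.79 in macrophages, all with adjusted p of at least 0.117. Hk2 was called only in cDC2, and its estimates in the other types ran from -0.93 in macrophages to 1.71 in BECs. Bnip3 was tested in 5 types (-1.29 to 0.19) and Slc2a1 in BECs and T cells, of which the D0 T cells held 0 UMIs.

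**Figure D4:**
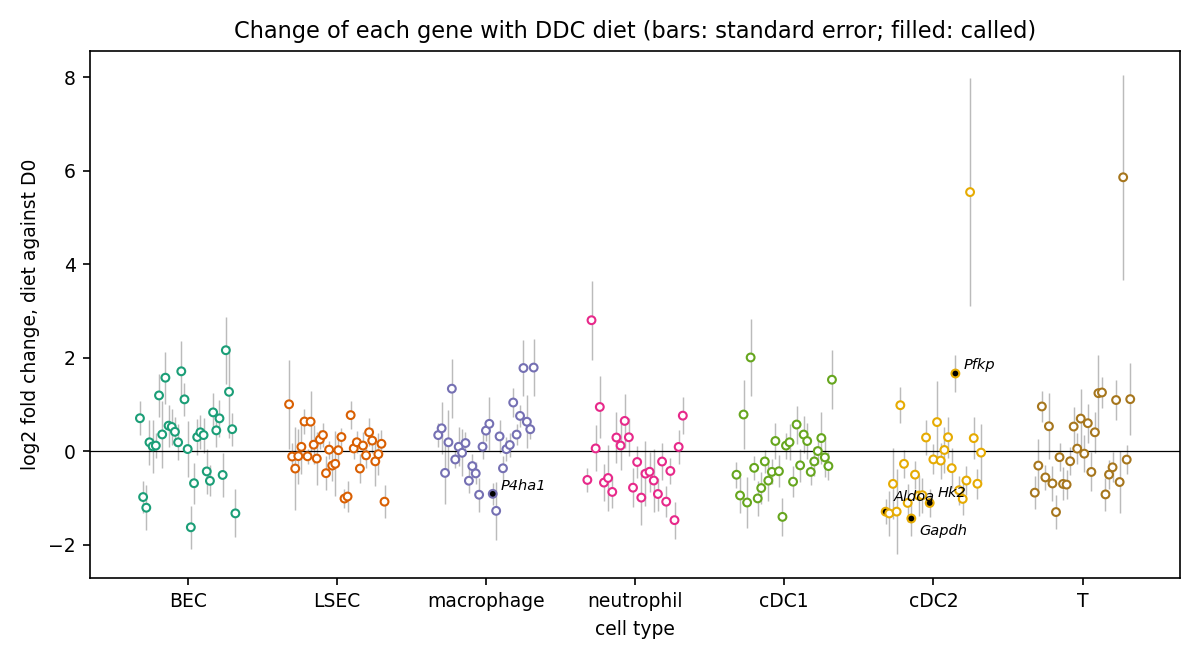
Log2 fold change of each tested member between DDC diet and D0 in each cell type (points) with its standard error (bars); filled points are called. The values of 5.55 for Slc16a1 in cDC2 and 5.86 for Slc2a1 in T cells rest on D0 groups at 0 UMIs and are no bound. The 5 filled points are P4ha1 in macrophages and Pfkp, Aldoa, Hk2 and Gapdh in cDC2.

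Whether the diet acted differently on one type than on the others was tested as an interaction over all 7 types with the library as a block, which removes whatever a library does to all of its types. Here 6 of 224 pairs were called, 3 in neutrophils, 2 in macrophages and 1 in BECs. The background was 0.722% in neutrophils, 0.991% in macrophages, 1.64% in BECs, 0.0793% in LSECs, 0.0714% in cDC1, 0.00793% in cDC2 and 0.0952% in T cells. In the 4 types with 0 calls, 4 of 32 members in LSECs, 2 in cDC1, 3 in cDC2 and 5 in T cells passed 0.05 before adjustment, against 8.39%, 6.26%, 5.46% and 7.83% of all genes. DESeq2 called no member in them, and 0.285%, 0.0555%, 0.00793% and 0.167% of all genes.

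P4ha1 fell further in BECs than in the other types (-1.51, adjusted p = 0.00586), with D0 A as the only D0 library of BECs, and stayed called without D19 B and D25 B (-1.40, adjusted p = 0.0301). The 8 hepatocyte markers summed to 7050 CPM in BECs at D0 and to 1747 to 4561 CPM on the diet, with at most 1 at 0, and their part in the P4ha1 difference was not tested. Pgam1, the phosphoglycerate mutase, moved up in macrophages relative to the other types (1.52, adjusted p = 0.00224). Its macrophage level was 68.1 and 89.1 CPM at D0, 91.9 to 174 CPM early and 131 to 273 CPM late, so that all diet libraries exceeded D0. Pgam1 is also one of the genes that were low in D19 B and D25 B in other types, and without both libraries the difference was 1.29 (adjusted p = 0.0253). It was not called without D0 A (adjusted p = 0.157) or without D0 B (0.0548). Aldoa in macrophages differed by 0.87 (adjusted p = 0.0253), and by 0.76 without that pair (adjusted p = 0.198). It was also not called without D0 A, D0 B, D5 B, D9 B, D19 B or D25 B (0.0614 to 0.202).

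In neutrophils Slc16a3 (-1.69, adjusted p = 0.0189), Pfkp (-1.28, adjusted p = 0.0469) and Pgk1 (-1.16, adjusted p = 0.0469) went down relative to the other types. Slc16a3 in neutrophils was at 806, 598 and 294 CPM in D3 A, D5 A and D5 B, and at 843, 171, 306, 154, 632 and 372 CPM in the late libraries, A before B for each day. The lower values were those of protocol B on each day from D5 on, and D0 B at 597 CPM overlapped with the diet libraries. Pgk1 was at 150 and 98.2 CPM at D0 and at 26.4 to 98.7 CPM on the diet. Without D0 A the estimates were -0.77, -1.14 and -0.13 in the order above and all 3 calls were lost (adjusted p = 0.944, 0.831 and 1). Without D0 B those of Slc16a3 and Pgk1 were -4.17 and -1.87. The calls were also lost without D19 B and D25 B together (0.167, 0.189 and 0.242) or without either of them (0.0737 to 0.15). Pfkp was also not called without D0 B, D5 B, D9 B, D19 A or D25 A, and Pgk1 without D3 B, D5 B, D9 B, D19 A or D25 A (0.0514 to 0.103). The 5 monocyte markers summed to 106 to 147 CPM in D0 neutrophils, with 2 of them at 0, and to 72.9 to 1828 CPM on the diet, with up to 3 at 0. The 8 neutrophil markers summed to 114400 to 147800 CPM at D0 and 50160 to 117200 CPM on the diet. The part of either in the neutrophil differences was not tested.

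Late diet was compared with early diet, which shares no D0 library. By edgeR 0 of 199 pairs were called, with 18 pairs at an unadjusted p under 0.05 (7.92% of all genes) and 0 by DESeq2 (0.507% of all genes). The background of edgeR's calls was 0% in BECs, neutrophils, cDC1 and cDC2, 0.0367% in LSECs, 0.567% in macrophages and 0.175% in T cells. The smallest adjusted p in a type was that of P4ha1 in macrophages (-0.67, adjusted p = 0.183). It was followed by Pfkp in neutrophils (-0.88), Ddit4 in LSECs (0.75), Ndrg1 in cDC1 (0.96), Ddit4 in cDC2 (0.66), Pgam1 in BECs (-0.84) and Pgam1 in T cells (-0.83), with adjusted p between 0.322 and 0.768.

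STOP, after 7 days without DDC, was set beside D19 B, the library of the same protocol at the end of the diet. With 1 library on each side there is no replicate and no test. A pair counted as past the fold when the ratio was at least 2 or at most 0.5 and the 95% Poisson intervals were separate. Of 203 pairs with at least 10 UMIs over both libraries, 39 were higher in STOP and 9 lower.

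The background was 7.79% of all genes in BECs, 9.35% in LSECs, 8.18% in macrophages, 17.4% in neutrophils, 7.61% in cDC1, 5.5% in cDC2 and 8.49% in T cells. In BECs 7 of 31 members were higher and 1 lower (all genes 3.57% and 4.22%), and in LSECs 5 and 1 of 30 (6.47% and 2.88%). Macrophages had 6 and 0 of 29 (4.9% and 3.28%) and neutrophils 11 and 3 of 26 (6.33% and 11.1%). For cDC1 the numbers were 3 and 2 of 30 (3.13% and 4.48%), for cDC2 3 and 1 of 26 (2.7% and 2.8%) and for T cells 4 and 1 of 31 (5.08% and 3.4%). The median ratio of the members was 1.79 in neutrophils (0.746 for all genes) and between 1.04 and 1.43 in the other types (0.909 to 1.10 for all genes). Because D19 B was itself low in Eno1 and Pgam1, STOP was also held against the range of all D0 and diet libraries, and 25 of the 39 higher pairs and 2 of the 9 lower ones were outside that range. Point values were compared there, without their intervals. The same was not counted over all genes, so these numbers have no background and are not a trait of the members.

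Ankrd37, an ankyrin-repeat gene induced through Hif1a, was in STOP above the range of all D0 and diet libraries in 6 of the 7 types. STOP held 18.9 CPM in BECs (13.5 to 25.8), 16.1 CPM in LSECs, 12.0 CPM in macrophages, 75.7 CPM in neutrophils and 15.0 CPM in T cells. D19 B held 4.25, 3.85, 1.11, 0 and 6.36 CPM in the same order, and the highest of the D0 and diet libraries were 9, 8.14, 6.51, 14 and 8.30 CPM. In cDC2 it was at 13 CPM from 12 UMIs, above the highest other library at 9.61 CPM, but the intervals of STOP and D19 B (4.89 CPM) overlapped, while cDC1 at 5.72 CPM lay inside the range. Against the level that 3 counts would give in D19 B, the neutrophils of STOP were 10.15-fold higher. Free RNA held 12.5 CPM of Ankrd37 in STOP and 6.60 CPM in D19 B. Macrophages, cDC2, T cells and LSECs of STOP, at 12.0 to 16.1 CPM, were near that level, and the part of free RNA in these values was not tested.

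Slc16a3 was at 14.7 CPM in BECs, 12.8 CPM in LSECs and 38.1 CPM in macrophages of STOP, above the highest D0 and diet libraries at 5.04, 8.13 and 37.0 CPM, while free RNA of STOP held 17.9 CPM. The interval of the macrophage value (28.4 to 50.15 CPM) took in the highest other library. In neutrophils Slc16a3 was at 551 CPM against 154 CPM in D19 B, inside the range of the other libraries. Egln3 in BECs was above every other library, at 118 CPM against 33.2 CPM in D19 B and at most 38.4 CPM elsewhere.

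The neutrophils of STOP moved in both directions. Pgk1 was at 213 CPM against 44.7 CPM, Tpi1 at 141 CPM against 64.6 CPM, Egln3 at 124 CPM against 39.7 CPM and Ldha at 377 CPM against 166 CPM, each above all other neutrophil libraries. Vegfa was the reverse, at 44.8 CPM from 29 UMIs against 435 CPM from 175 UMIs, and below all other libraries, of which the lowest held 75.5 CPM. Hif1a was at 17.0 CPM from 11 UMIs, against 62.1 CPM from 25 UMIs, and Hk2 at 80.3 CPM against 164 CPM. In the same neutrophils the hepatocyte markers summed to 1190 CPM in STOP and 253 CPM in D19 B, and the 5 monocyte markers to 60.2 CPM, with 2 at 0, and 1828 CPM, with 1 at 0. The part of other cells in these differences was not tested.

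P4ha1 was higher in STOP than in D19 B in BECs (24.1 against 6.07 CPM), macrophages (135 against 41.9 CPM) and cDC2 (42.3 against 20.8 CPM). In LSECs it was at 125 CPM against 66.7 CPM, a ratio under 2. The comparison with D0 above also uses D19 B, so that both share that library. In BECs and macrophages STOP stayed below D0 A, but in macrophages it was above D0 B. In LSECs STOP lay below both D0 libraries. In cDC2 its point value was above every D0 and diet library, but its interval (30.05 to 57.77 CPM) took in the highest of them, at 41.75 CPM. The 8 hepatocyte markers, all found in each of these samples, summed to 4995 CPM in BECs of STOP and 1747 CPM in those of D19 B, to 924 and 646 CPM in macrophages, to 329 and 162 CPM in cDC2 and to 765 and 225 CPM in LSECs. Free RNA held 30.9 CPM of P4ha1 in STOP and 12.7 CPM in D19 B, above the BECs of the same library in both. The part of hepatocyte and free RNA in these values was not tested.

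Hk2 in BECs went the other way, at 5.68 CPM in STOP and 24.5 CPM in D19 B, where D19 B was the highest BEC library. Pdk1 was lower in LSECs (32.5 against 65.4 CPM) and cDC1 (8.58 against 19.9 CPM), Ddit4 in cDC1 (8.44 against 21.6 CPM), Slc2a1 in T cells (0.671 against 2.57 CPM) and the uncertain Gapdh in cDC2 (2.17 against 18.8 CPM). Beside D25 B the ratio turned for Pdk1 in LSECs (1.03), Ddit4 in cDC1 (2.02) and Slc2a1 in T cells (1.75). In T cells, cDC1 and cDC2 only 2 of the 10 higher pairs past the fold lay above all other libraries, Ankrd37 in T cells and P4ha1 in cDC2, the latter by point value only. This too was not counted over all genes.

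**Figure D5:**
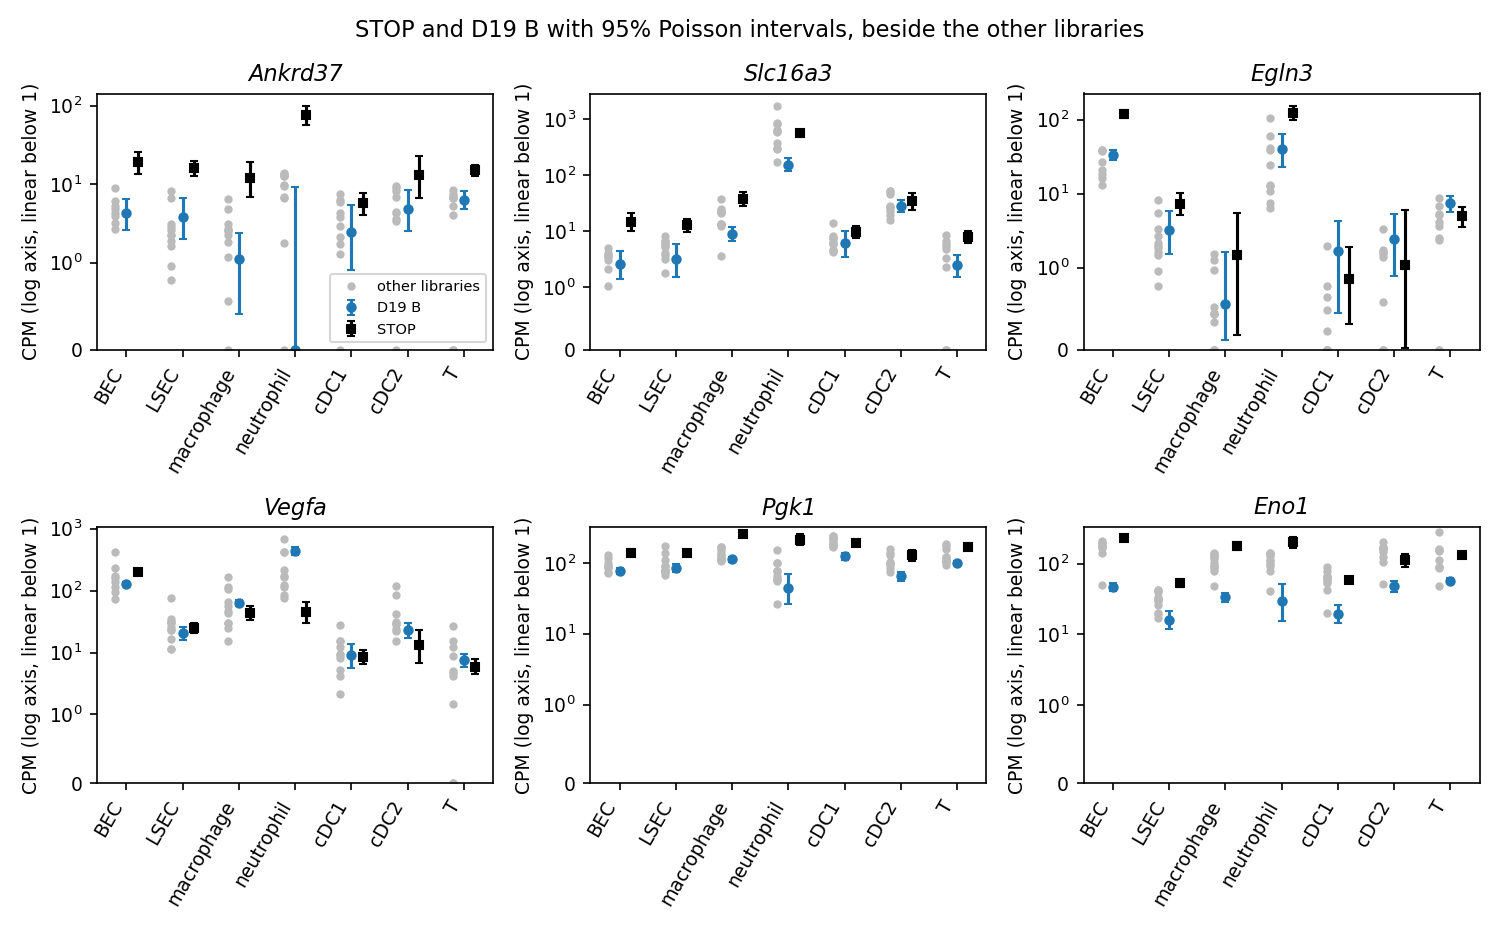
CPM of 6 members in STOP (black squares) and D19 B (blue circles), each with its 95% Poisson interval, beside the other D0 and diet libraries (grey points), on a log axis that is linear below 1. Ankrd37 lies above all other libraries in 6 types, Vegfa in neutrophils below them, and for Eno1 D19 B is among the lowest libraries in every type.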

How the data were processed

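Livers were dissociated and sorted under protocol A or B, and 13 droplet libraries were sequenced. Per the labels the deposited values are raw counts of UMIs, 1 matrix of genes by barcodes for each library, which kallisto produced against GRCm38 (its version is not given in the sources used here). Barcodes with at least 1500 UMIs were kept. A cell was assigned to a type by UMIs in at least 3 of 8 markers (for cDC2, 2 of 5), with a pan-dendritic marker as well for cDC1 and cDC2. Cells with markers of a second type or over 2% hepatocyte UMIs were left out, and no doublet caller was run. Counts were summed per library and cell type where at least 20 cells were present.

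Within a type, diet and D0, and late and early diet, were compared with edgeR 4.0.16 (quasi-likelihood test, TMM, filterByExpr, isolation protocol as a covariate, Benjamini-Hochberg adjustment over all genes tested). The diet value is the mean of the early and late estimates less D0. Differences between types and of their diet changes were fitted over all types with the library as a block. DESeq2 1.42.0 was an alternative. STOP was 1 library and had no test. Poisson intervals (95%) cover counting error only. The code was tested on simulated data.

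The members and lists were chosen with earlier results of these data known. Genes named were Hif1a, Slc2a1, Hk2, Pfkfb3, Vegfa, Ldha and Bnip3, and per comparison and type the 3 largest called changes in each direction or, with none called, the smallest adjusted p. Of other lists at most the 2 largest called changes were named. Levels of further members describe their role and were chosen after their values were seen.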

Additional observations from a re-analysis of the deposited data

Results flagged for a closer look

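Over the genes described in every type and those named in the diet comparisons, 114 groups of 4 to 6 libraries of 1 stage and cell type were examined. In 6 of them 1 library stood apart from the others, and chance gives about 1 in 20, or 6. Bnip3 in early LSECs was at 10.2 CPM in D5 A, from 257 UMIs, where the other 3 libraries held 2.58 to 2.72 CPM. In late LSECs it was at 11.5 CPM in D19 B (others 5.59 to 7.77 CPM), and in early cDC1 at 4.26 CPM in D5 A (others 1.92 to 2.11 CPM). The other 3 rest on few UMIs. Hif1a in late cDC1 was at 24.9 CPM in D25 A from 4 UMIs (others 8.37 to 10.3 CPM), Slc2a1 in early T cells at 15.0 CPM in D3 A from 2 UMIs (others 0 to 2.38 CPM), and Pgam1 in late T cells at 110 CPM in D9 A from 13 UMIs (others 20.2 to 39.5 CPM).

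The diet change of a cell type was called different from that of the other types, by the interaction term of the edgeR fit, in 6 of 224 pairs. The share of all genes was 0.722% in neutrophils, 0.991% in macrophages and 1.64% in BECs. These pairs were P4ha1 in BECs (-1.51), Pgam1 and Aldoa in macrophages (1.52 and 0.87), and Slc16a3, Pfkp and Pgk1 in neutrophils (-1.69, -1.28 and -1.16). Except for P4ha1, for which D0 A cannot be left out, each call was lost without at least 1 library, as given above.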

How the results depend on the processing

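The 5 diet calls of edgeR became 13 with DESeq2 and 26 with no filter on low counts. They became 18 with at least 50 cells per library, 15 in protocol B only, 0 in protocol A only and 3 without a protocol term. Protocol A only covered 128 pairs in 5 types. It left out cDC2, with 12 cells in D0 A, and BECs, with no early library of 20 cells there. The 4 calls in cDC2 could thus not appear, and the 0 says nothing about them. Protocol B only covered 155 pairs in 6 types, without BECs. Leaving out 1 library at a time gave 1 to 20 calls, with 20 without D0 A and 1 without D0 B, where cDC2 could not be fitted. Of these 5, Pfkp and Aldoa in cDC2 were called in all 20 settings that could be fitted, but each of these keeps D0 B, the single D0 library of cDC2, so that they say nothing about it. P4ha1 in macrophages was called in 9 of 22. With DESeq2 all genes gained calls too, in macrophages from 437 to 775 of 10591, where the members called went from 1 to 4. For the other settings counted here the share of all genes is given only where stated above. Without it a rise in members cannot be told from a rise in all genes. The 0 calls between late and early diet became 3 with no filter and 1 in protocol A only, and 0 to 1 when 1 library was left out and 0 without D19 B and D25 B. The 6 interaction calls became 10 with DESeq2, 0 in protocol A only and 2 without D19 B and D25 B, and 0 to 6 when 1 library was left out, with 0 without D0 A, where BECs could not be fitted. The number of cell type calls, 171, ran from 121 to 173 (163 to 173 with 1 library left out, 158 without D19 B and D25 B). The number of pairs past the fold in STOP, 48, ran from 38 to 48, but only 24 of the 38 against D25 B and 27 of the 43 against D9 B were among the 48 against D19 B.

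Directions reversed for Pgam1 in T cells between late and early diet in protocol A only (log2 fold change 0.0396). With D25 B in place of D19 B, STOP ratios reversed for Pdk1 in LSECs (1.03), Ddit4 in cDC1 (2.02) and Slc2a1 in T cells (1.75), and with D9 B for Eno1 in cDC1 (0.88) and cDC2 (0.69). The causes were not tested. The settings without D19 B and D25 B, and with D25 B or D9 B beside STOP, were chosen after seeing the data. No paired analysis by replicate number was possible because the labels carry none. The protocol, A and B on each day, was a term of the diet fits, and leaving it out gave the 3 calls above. Few UMIs limit neutrophil values most, where 1 library held 102028 UMIs.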
